A study of Mus musculus with 4 samples.

Results

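Cycling keratinocytes are the epidermal cells caught between the start of DNA replication and the end of division, and they were described here in mouse epidermis 1 day after ablation of ΔNp63. They were chosen by transcript counts from 2 single-cell RNA sequencing libraries, 1 control and 1 experimental. A barcode counted as cycling when it had at least 2000 gene UMIs (unique molecular identifiers, each marking 1 captured RNA molecule) and at most 15% mitochondrial UMIs. It also needed at least 6 UMIs from at least 4 of the 8 genes Mki67, Top2a, Cenpf, Ube2c, Ccnb1, Cdk1, Birc5 and Hmmr, at least 5 UMIs of Krt5 plus Krt14, and none of the leukocyte gene Ptprc. This selected 2342 of the 65764 barcodes of both libraries, of 109216 in the whole series. The control library held 1295 cycling cells among 20413 keratinocyte barcodes (those meeting the same limits without the cycling genes), and the experimental library held 1047 among 19933. Keratinocyte barcodes with no UMI of the 8 genes served as non-cycling cells, 16416 in the control and 15579 in the experimental library.

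Control mice were DNp63fl/fl, and experimental mice were DNp63fl/fl;K14-CreT2. In the latter a tamoxifen-activated Cre recombinase under the keratin 14 promoter, active in basal keratinocytes, removes ΔNp63. Both groups carried the floxed alleles and received tamoxifen at 200 mg/kg daily for 5 days by oral gavage. Ages of 2 to 17 months and both sexes are given for the study, and skin was digested in trypsin either cold overnight or warm for a shorter time, but the labels do not tie any of these to a library or give the number of mice in it. With a single library a group, the differences have no replicate check and were not tested between groups. Intervals are 95% intervals for counting error only, exact except for a difference of log2 ratios, where a normal approximation was used, and cells of 1 library are not replicates.

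Adult epidermis renews itself from dividing cells of its basal layer, which is anchored to the basement membrane by integrins and hemidesmosomes. Progeny that leave this layer stop dividing and make the keratins and envelope proteins of the barrier. p63, encoded by Trp63, is a transcription factor of the basal layer, and ΔNp63 is its main epidermal isoform. In dividing cells, genes for DNA replication are expressed in S phase, and genes for the mitotic kinases, spindle and cytokinesis peak later, in G2 and mitosis.

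The late group is known for promoters that hold CCAAT boxes and a cell cycle homology region (CHR), and the S phase group for E2F sites, so the 250 bases before the start of 4 list genes are shown. They are Ccnb2, encoding a mitotic cyclin, Ncapg, a condensin subunit, Cdc20, an activator of the anaphase-promoting complex, and Mcm5, a subunit of the replicative helicase. The sequences are from RefSeq on GRCm38.p6, 5′ to 3′ on the gene's strand, with every match in capitals. The CCAAT box was searched as its own 5 letters, the CHR as the letters TTTGAA, and the E2F site as either TTTGGCGC or as TTTCCCGC, each on both strands.
Ccnb2, chr9:70421555-70421804, minus strand: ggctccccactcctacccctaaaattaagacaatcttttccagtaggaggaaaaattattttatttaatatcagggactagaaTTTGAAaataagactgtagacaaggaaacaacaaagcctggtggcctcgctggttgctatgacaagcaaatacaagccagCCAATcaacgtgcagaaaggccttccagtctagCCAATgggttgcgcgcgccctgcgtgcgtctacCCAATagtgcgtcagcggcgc
Ncapg, chr5:45669675-45669924, plus strand: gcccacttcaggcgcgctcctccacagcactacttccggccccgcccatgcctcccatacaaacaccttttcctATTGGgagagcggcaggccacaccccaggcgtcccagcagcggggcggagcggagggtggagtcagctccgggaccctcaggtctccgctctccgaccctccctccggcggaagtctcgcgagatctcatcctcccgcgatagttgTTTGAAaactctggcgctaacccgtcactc
Cdc20, chr4:118437344-118437593, minus strand: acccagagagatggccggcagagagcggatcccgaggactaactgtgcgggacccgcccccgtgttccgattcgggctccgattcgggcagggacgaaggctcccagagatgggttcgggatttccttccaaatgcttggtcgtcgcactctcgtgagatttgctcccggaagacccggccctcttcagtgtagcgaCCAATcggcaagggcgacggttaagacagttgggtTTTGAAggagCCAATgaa
Mcm5, chr8:75109259-75109508, plus strand: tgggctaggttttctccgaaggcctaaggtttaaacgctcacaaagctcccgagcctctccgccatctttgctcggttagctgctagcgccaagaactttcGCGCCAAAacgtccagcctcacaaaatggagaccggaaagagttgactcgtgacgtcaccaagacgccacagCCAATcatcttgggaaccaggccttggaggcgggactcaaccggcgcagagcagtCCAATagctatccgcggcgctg
The first 3 windows each hold at least 1 CCAAT box and 1 CHR match, and the Mcm5 window holds 2 CCAAT boxes and 1 E2F match. A promoter was found for 44 of the 57 genes of the 3 mitotic lists described below, and 28 of them (63.6%) hold a CCAAT box, against 34.5% of 27025 promoters in all. A CHR match was in 9 of the 44 (20.5%), against 16.3% of all, and both motifs were in 8 (18.2%), against 5.73% of all. Of the 59 genes of the 3 S phase lists 45 had a promoter, of which 25 hold a CCAAT box (55.6%), 4 a CHR match (8.89%) and 7 an E2F match (15.6%, against 1.35% of all promoters). A match describes the letters in the window and does not show that a factor binds there.

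The libraries differed in depth. Cycling cells had a median of 8484 UMIs in the control and 6968 in the experimental library, and non-cycling cells 4559 and 3854. Their mitochondrial share was alike, with medians of 4.22% and 4.27%. Of the barcode sequences, 299 occurred in both libraries, including 15 control and 9 experimental cycling barcodes, and 1 barcode was cycling in both. Barcodes of immune cells (at least 2 UMIs of Ptprc and at most 4 of Krt5 plus Krt14, 85 control and 69 experimental) were set beside the cycling cells. Their values can hold free RNA, RNA of a keratinocyte caught under the same barcode, and what immune cells express themselves. These parts were not separated. The limit also holds down their Krt5 and Krt14. Suprabasal and terminal differentiation genes summed to 21402 and 27613 CPM in immune barcodes, against 19425 and 32434 CPM in non-cycling keratinocytes. Both matrices also hold antibody counts for 3 hashtags, whose meaning the labels do not give. A barcode with 1 clear hashtag was placed in 1 of 3 sets per library, which held 1011 of the control and 570 of the experimental cycling cells. The ranges over these sets show the spread within a library and stand for no replicates. They are given for chosen genes and lists, without the share of all genes whose sets stay apart. Sets that do not overlap are therefore a description only. In cycling cells Xist, a transcript of female cells, was at 0 CPM in every control set and at most 1.03 CPM in an experimental set. Ddx3y, a gene of the Y chromosome, was at 77.2 to 91.3 CPM over control and 74.3 to 82.2 CPM over experimental sets. Without a clear hashtag Xist was at 0 CPM and Ddx3y at 86.8 and 73.9 CPM. These are values of male cells in both libraries, though the labels name no sex for either.

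The 8 genes that chose the cells are given as a description only. In control and experimental cycling cells, Mki67 was at 362 and 357 CPM (a gene's share of all gene UMIs of the summed cells, scaled to the usual CPM total), Top2a at 492 and 494, and Cdk1 at 146 and 151. Cenpf was at 175 and 224 CPM, Ube2c at 322 and 394, Ccnb1 at 59.2 and 84.1, Birc5 at 110 and 116, and Hmmr at 80.4 and 103. The median cycling cell had 16 UMIs of these genes in the control and 13 in the experimental library. Just inside the limit, 53 control and 58 experimental cells had exactly 6 UMIs, and just outside it, 107 and 162 keratinocyte barcodes had 5. A further 113 and 106 had at least 6 UMIs from only 3 genes.

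The keratinocyte label was checked against the immune barcodes. Krt5 and Krt14 chose both classes and are no check. The 10 keratinocyte markers summed to 24005 and 15487 CPM, against 6019 and 6709 CPM in immune barcodes. They include these 2 genes, so the selection fixed part of this gap and the sum is a description only. Dsg3, a desmosomal cadherin not used by the rule, was at 241 and 226 CPM against 31.9 and 52.4 in immune barcodes. The integrin Itga6, not one of the 10 markers, was at 511 and 506 against 43.5 and 44.9. Dsp, another desmosome gene, reached 1408 and 1322 CPM in immune barcodes, above its 1239 and 1135 CPM in cycling cells, and does not separate the cells. The 7 Langerhans and myeloid markers summed to 389 and 270 CPM, against 28375 and 28437 CPM in immune barcodes. The 5 endothelial markers summed to 1.62 and 1.01 CPM, the 5 fibroblast markers to 7.45 and 7.39, and the 5 Merkel cell markers to 0.0703 and 0.224 CPM, with Atoh1, Isl1, Sox2 and Snap25 at 0 UMIs. The 7 T cell markers were at 71.5 and 29.2 CPM in sum, most of it from Thy1, at 56.0 and 17.9 CPM, and their hashtag sets did not overlap. Their part in any result was not tested.

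The share of keratinocytes in cycle was 6.34% (95% exact binomial interval 6.01 to 6.69) in the control and 5.25% (4.95 to 5.57) in the experimental library. Depth moved with this difference. With every barcode thinned to 2000 UMIs and the limit lowered to 3 UMIs from 2 genes, the shares were 4.80% (4.51 to 5.10) and 5.04% (4.74 to 5.35), and the order turned. Over hashtag sets the share at full depth was 6.19, 9.28 and 9.91% in the control and 5.66, 7.99 and 9.13% in the experimental library, so the sets overlapped. No difference in the share could be read from these libraries. Among loricrin-rich barcodes (at least 20 UMIs of Lor), which mark cells that have left the cycle, the thinned share was 0.881% of 227 in the control (median 10170 UMIs) and 1.01% of 694 in the experimental library (median 6388). It was 7.06% of 85 and 13.0% of 69 among the immune barcodes, where Mki67 was at 52.2 and 82.4 CPM.

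**Figure D1:**
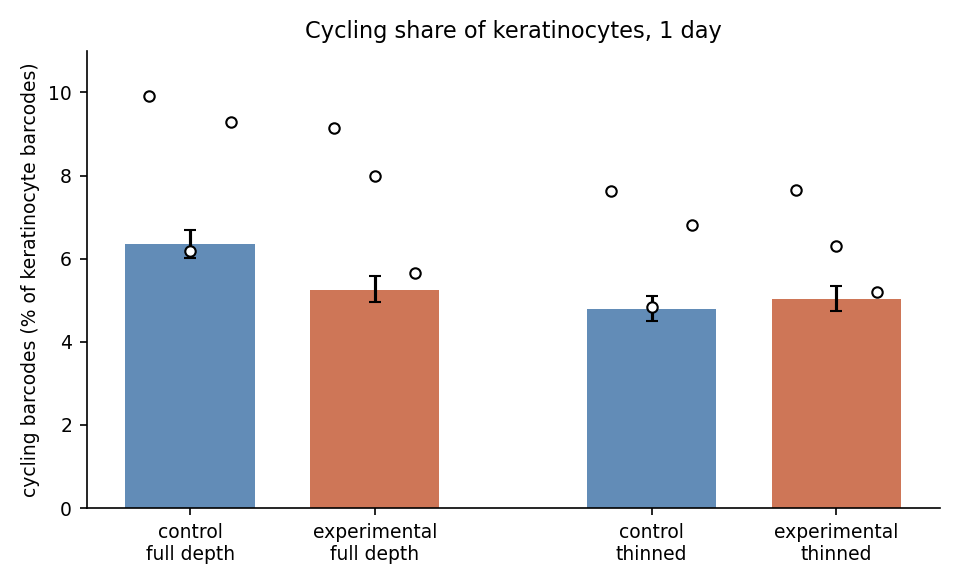
Cycling barcodes as a percentage of keratinocyte barcodes in the control and experimental library, at full depth and thinned to 2000 UMIs. Bars are shares with exact 95% binomial intervals and open circles are the 3 hashtag sets, in the order 1 to 3, which leave out barcodes without a clear hashtag. The order of the libraries is 6.34% against 5.25% at full depth and 4.80% against 5.04% after thinning, and the sets overlap in both.

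Against non-cycling cells of the same library, genes of replication and division were higher in cycling cells of both libraries. Of 12621 genes with at least 50 UMIs in the control sums, 717 were at least 2-fold higher in cycling cells (5.68%) and 648 at least 2-fold lower (5.13%). In the experimental library 919 of 12319 were higher (7.46%) and 616 lower (5.0%). Since cells were selected on cell cycle genes, these ratios describe the selection. Spindle and kinetochore genes had a median log2 ratio of 5.99 in the control and 5.69 in the experimental library, mitotic entry regulators 5.21 and 4.86, and genes of mitotic exit and cytokinesis 5.01 and 4.80. The S phase groups lay lower, at 2.21 and 2.14 for origin licensing, 2.28 and 2.28 for DNA synthesis, and 4.11 and 3.33 for replication checkpoint and recombination repair.

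Among genes at 20 CPM or more, those furthest above non-cycling cells in both libraries were Nusap1, Aspm, Ccna2, Nuf2, Esco2, Ccnb2, Cdca3, Spc25, Cep55 and Ncapg. Nusap1, which bundles spindle microtubules, was at 85.6 CPM in control cycling and 0.629 in control non-cycling cells, and at 98.4 and 0.935 CPM in the experimental library. Ccna2, the cyclin of S phase and G2, went from 60.6 CPM in cycling to 0.451 in non-cycling control cells, and from 76.8 to 0.805 in experimental cells. The lowest were Lce1m, Lce1a2, Lce1b, Krt24, Ly6m, Wfdc3, Mboat2, Elovl4, Skint6 and Dsc1, among them genes of the cornified envelope and, with Elovl4, of very long chain fatty acid synthesis. Close copies in the Lce family can share reads, so their single values are uncertain. Of 22 suprabasal and terminal differentiation genes, 18 were at least 2-fold lower in cycling cells in the control and 17 in the experimental library.

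**Figure D2:**
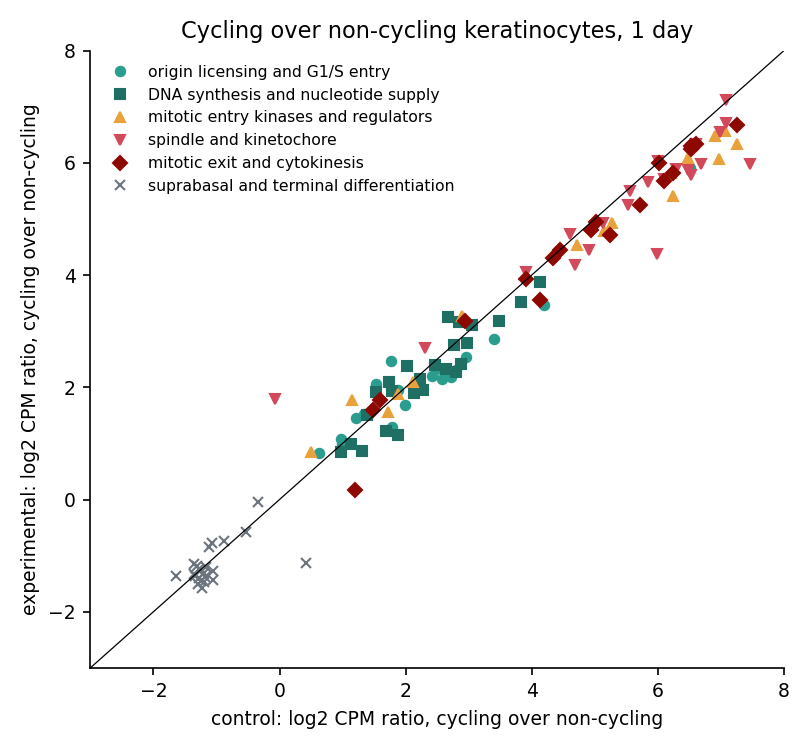
Log2 ratio of CPM in cycling over non-cycling keratinocytes, control on the x axis and experimental on the y axis, 1 point per list gene, with the line of equality. Mitotic genes sit highest, with list medians from 4.80 to 5.99, licensing and DNA synthesis genes lower, with medians from 2.14 to 2.28, and most differentiation genes below 0 in both libraries. The spindle point left of the line is Ttk, at -0.07 in the control and 1.78 in the experimental library.

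Between the libraries, the cell cycle genes of cycling cells differed little. Of 10374 genes with at least 50 UMIs in the cycling sums, 323 (3.11%) were at least 2-fold higher and 187 (1.8%) at least 2-fold lower in the experimental library, with a median log2 ratio of 0.04. None of the 20 origin licensing, 25 DNA synthesis, 14 replication checkpoint, 16 mitotic entry, 22 spindle, 19 mitotic exit or 19 chromosome condensation genes measured was among them. Cells of both libraries were chosen by the same limit on cell cycle genes, so the likeness of these lists also describes the selection. The licensing genes, which load and fire the replicative helicase, had a median log2 ratio of -0.10. Mcm3, a helicase subunit, was at 29.9 CPM in the control and 33.7 in the experimental library, and Mcm5 at 27.0 and 23.5. The DNA synthesis genes had a median of -0.09, with 19 of 25 lower. Pcna, the sliding clamp of the replication fork, was at 193 and 173 CPM, and its hashtag sets overlapped (165 to 237 against 142 to 187). Tyms, the thymidylate synthase, was at 90.1 and 78.1 CPM, and Rrm2, a subunit of ribonucleotide reductase, at 38.9 and 47.0. Over the cells with a clear hashtag 2 or 3 only, the log2 ratio was 0.02 for Pcna, against -0.16 over all cells, and 0.08 for Tyms, against -0.21. Over those with a clear hashtag 1 or 3 it was -0.29 for Rrm2, against 0.27.

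Genes of mitosis leaned the other way by small amounts, in the direction that the selecting genes, mostly of the same phase, also had (median 0.18). The median log2 ratio was 0.19 for mitotic entry, 0.09 for spindle and kinetochore and 0.23 for mitotic exit and cytokinesis, where 16 of 19 genes were higher. Aspm, a spindle pole protein, was at 40.0 CPM in the control and 58.3 in the experimental library, a log2 ratio of 0.54 (0.37 to 0.72), with overlapping hashtag sets (31.9 to 57.3 against 52.2 to 65.3). Prc1, the microtubule bundler of the central spindle, was at 230 and 324 CPM (0.49, 0.42 to 0.57). Plk1, a kinase of mitotic entry, was at 10.3 and 15.9 CPM (0.63, 0.29 to 0.98), and its hashtag sets overlapped (9.38 to 12.6 against 8.05 to 19.7). Pttg1, the securin that holds back sister chromatid separation, lay the other way at 52.6 and 33.4 CPM (-0.66, -0.85 to -0.46). Sets did not overlap for Cdc20 (94.0 to 113.5 against 114.3 to 123.5 CPM) and Cep55 (19.7 to 22.2 against 27.4 to 32.2 CPM). The summed CPM of each of the 7 cell cycle lists overlapped between the hashtag sets of both libraries.

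The balance of S phase and mitotic transcripts was also counted within single cells. At 2000 UMIs per cell, the 59 S phase genes gave a mean of 4.17 UMIs in the control and 3.85 in the experimental library, and the 57 mitotic genes 8.84 and 10.0. S phase UMIs outnumbered mitotic UMIs in 17.2% of control (15.2 to 19.4) and 14.1% of experimental cycling cells (12.1 to 16.4). The intervals of these shares overlap. The rule genes are mostly of G2 and mitosis, and the fixed limit of 6 UMIs asks for a larger share of a cell's UMIs in the shallower experimental library. The rule genes themselves had a mean of 4.31 and 4.77 UMIs at this depth. The direction of the mitotic values is therefore also the one the choice of cells favours, and nothing is read from it.

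Of 10 measured genes of the list of D cyclins, Myc and pocket proteins, 2 were higher and 8 lower. None was past 2-fold, and the median log2 ratio was -0.17. Ccnd1 and Ccnd2, the D cyclins of G1, were at 63.7 and 174 CPM in the control and 58.0 and 147 in the experimental library, and overlapped over hashtag sets. Of 22 Cdk inhibitors and p53 target genes, 14 were higher and 8 lower, with a median log2 ratio of 0.32. The summed CPM of this list went the other way, at 9604 in the control and 8406 in the experimental library. Its hashtag sets overlapped (8381 to 10444 against 8018 to 8842), so no general rise of the list is read. At least 2-fold higher were 2, Btg2 and Pmaip1, and none was at least 2-fold lower. Cdkn1a, the Cdk inhibitor p21, was at 480 CPM in control and 793 in experimental cycling cells (log2 0.72, 0.68 to 0.77). Its hashtag sets did not overlap, at 394, 479 and 512 CPM against 666, 827 and 837. In non-cycling cells Cdkn1a was at 600 and 1208 CPM, and in immune barcodes at 945 and 1202 CPM. The immune level was above that of cycling cells in both libraries, and the part of free RNA was not tested. Btg2, an antiproliferative gene, was at 373 and 758 CPM, again below the immune barcodes at 875 and 1363. Pmaip1, encoding the cell death protein Noxa, was at 24.2 and 55.3 CPM against 23.2 and 41.2 in immune barcodes. Trp53 itself was lower, at 112 and 74.8 CPM (-0.58, -0.71 to -0.45).

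**Figure D3:**
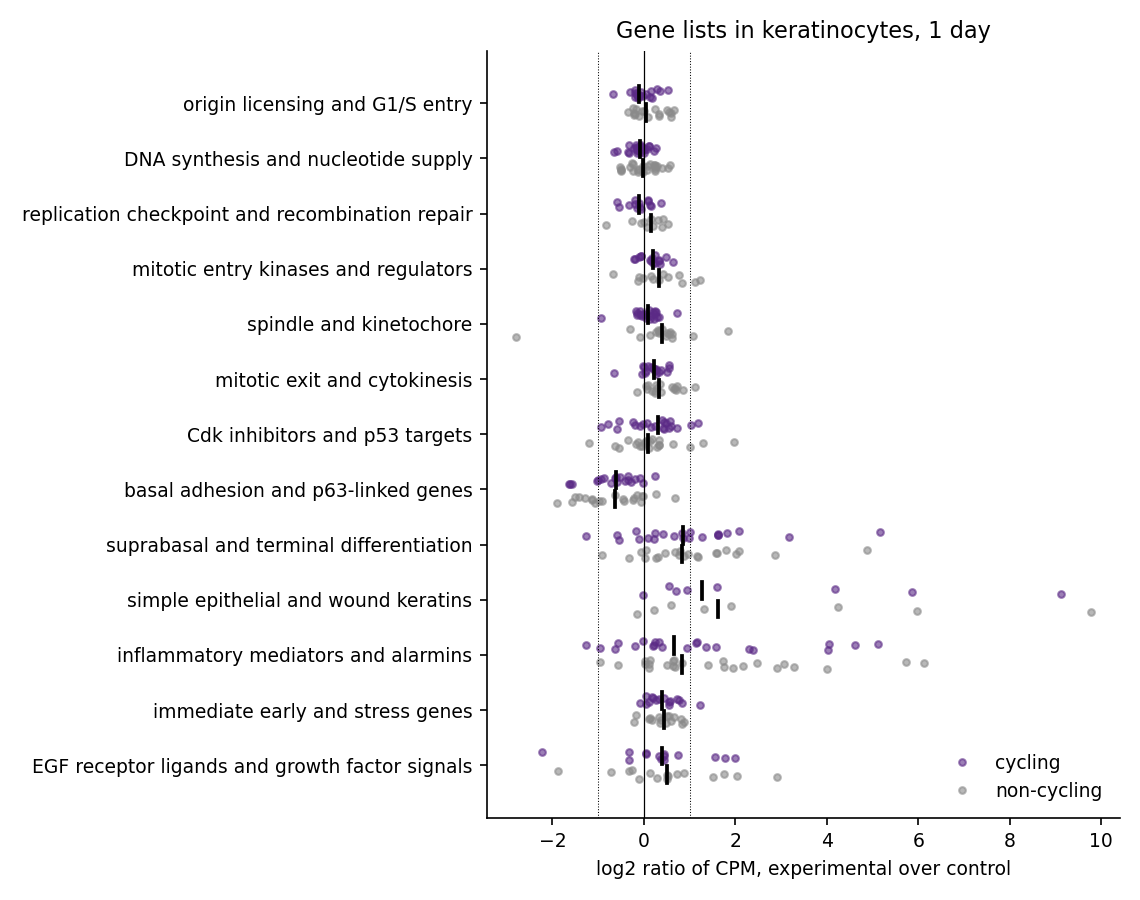
Log2 ratio of CPM, experimental over control, for each gene of 13 lists with at least 50 UMIs, in cycling (purple) and non-cycling (grey) keratinocytes; black ticks are medians and dotted lines mark 2-fold. Cell cycle genes of cycling cells lie between the dotted lines, while most basal adhesion genes lie left of 0 (median -0.60 in cycling cells) and differentiation genes and keratins mostly right of it (0.85 and 1.27).

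The targeted gene was low in cycling cells of the experimental library. Trp63 (ENSMUSG00000022510, chr16:25683763-25892102 in GRCm38) was at 399 CPM in control cycling cells and 129 CPM in experimental ones, a log2 ratio of -1.63 (-1.72 to -1.54). Its hashtag sets stood apart, at 375, 405 and 451 CPM against 132, 134 and 202. In non-cycling cells it was at 437 and 117 CPM, and in immune barcodes at 125 and 30.0 CPM. Thinned to 2000 UMIs, 52.5% of control (49.7 to 55.3) and 18.2% of experimental cycling cells (15.9 to 20.7) had a Trp63 UMI, against 15.3% of 85 and 4.35% of 69 immune barcodes. The counts are per gene and made from the 3′ end, so they do not separate ΔNp63 from other p63 isoforms, and the labels do not place the deleted part against the counted end.

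Genes that hold basal cells to the basement membrane were lower. Of 20 basal adhesion and p63-linked genes measured, 19 were lower and 4 by at least 2-fold (Trp63, Krt15, Col17a1 and Itga2), with a median log2 ratio of -0.60. Col17a1, the hemidesmosome collagen, was at 886 CPM in the control and 287 in the experimental library (-1.63, -1.69 to -1.57), with hashtag sets at 779, 911 and 1014 against 288, 293 and 391. Krt15, a basal keratin, was at 2985 and 998 CPM (-1.58, -1.61 to -1.55), and its sets did not overlap. Itga2, a collagen-binding integrin, was at 128 and 62.8 CPM (-1.03, -1.17 to -0.89). Other genes of the list with a role in anchoring were also lower. Itgb4, the hemidesmosome integrin, was at 148 and 89.3 CPM, Dst, its plakin linker, at 451 and 236, and Lamb3, a laminin chain, at 130 and 64.9. Itga6, the partner of Itgb4, was at 511 and 506 CPM and its sets overlapped (397 to 663 against 500 to 598). In non-cycling cells, where 680 of 13337 genes were at least 2-fold higher (5.1%) and 395 at least 2-fold lower (2.96%), the median of this list was -0.64. With mitochondrial and ribosomal protein genes left out of the totals these counts in non-cycling cells were 565 and 528, with the median of all genes moved from -0.03 to -0.15. Krt5 and Krt14, used to choose the cells, were at 3907 and 10328 CPM in the control and 1624 and 5277 in the experimental library.

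Krt8 and Krt18 were nearly absent from control cycling cells and far higher in experimental ones, while Krt7 and Krt19 were low in both. Krt8 (chr15:101996698-102004482 in GRCm38), a keratin of simple epithelia, had 20 UMIs in control cycling cells (1.41 CPM) and 7016 in experimental ones (785 CPM), a log2 ratio of 9.13 (8.50 to 9.84). Its hashtag sets were at 0.887, 1.52 and 2.76 CPM against 699, 727 and 760. Krt18, its partner in filaments, was at 1.26 and 73.3 CPM (5.86, 5.19 to 6.62). In experimental immune barcodes Krt8 was at 109 CPM and Krt18 at 3.75 CPM, below the cycling cells, and the part of free RNA was not tested. Krt7 was at 2.74 and 2.69 CPM, and Krt19 had 4 and 2 UMIs, with overlapping hashtag sets for both. Of 8 measured keratins of simple epithelia and wounds 4 were at least 2-fold higher, with a median log2 ratio of 1.27. This median was 1.91 over the cells with a clear hashtag 1 or 3 and 0.83 with no filter beyond 1 UMI. Krt16, a wound keratin, was at 425 and 1285 CPM (1.60, 1.55 to 1.64), and Krt6a, its partner, at 384 and 737 (0.94, 0.89 to 1.00), where reads may be shared with Krt6b.

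Differentiation genes were mostly higher, but several lay below the level of immune barcodes. Of 22 measured, 9 were at least 2-fold higher and 1 at least 2-fold lower (Ivl). The median log2 ratio was 0.85, which was 1.56 without Scrublet-marked barcodes and 1.37 over the cells with a clear hashtag 1 or 2. The summed CPM of the list was 6044 to 6379 over control and 9034 to 12548 over experimental hashtag sets. Cycling cells without a clear hashtag had the opposite order, at 15989 CPM in the control and 15031 in the experimental library. Flg, the filaggrin of the granular layer, was at 7.80 CPM in control and 70.9 in experimental cycling cells (3.18, 2.89 to 3.49), with 5.80 and 11.2 CPM in immune barcodes. Its experimental hashtag sets were spread, at 8.05, 34.2 and 129 CPM, and no control set exceeded 3.04 CPM, but control cycling cells without a clear hashtag were at 25.7 CPM and experimental ones at 83.2. Sprr1a, a cornified envelope protein, was at 873 and 3060 CPM, but immune barcodes reached 2365 and 6424 CPM. Krt10, the suprabasal keratin, was at 2288 and 2137 CPM, below the 5987 and 5547 CPM of immune barcodes, and its level is not read as expression. Ivl, an envelope protein, was at 56.2 and 23.4 CPM, also below the immune barcodes (270 and 214). Cells with at least 3 UMIs of Krt1 plus Krt10 per 2000 were 20.1% of control and 32.3% of experimental cycling cells. Scrublet, a doublet caller, marked 83.8% and 67.8% of them, against 30.9% and 12.7% of those with none. A fixed share of the highest-scoring barcodes was marked. Unmarked were 13951 of 20413 control and 13680 of 19933 experimental keratinocyte barcodes, and 768 of 1295 and 724 of 1047 cycling cells. Without the marked barcodes the log2 ratio of Krt10 turned from -0.10 to 0.86 and that of Krt1 from -0.55 to 0.18.

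Inflammatory genes had a median log2 ratio of 0.67, with 10 of 22 at least 2-fold higher and 1 at least 2-fold lower, Ccl20. Between hashtag sets the summed CPM of the list overlapped (1897 to 3199 against 3099 to 3317). Tslp, an alarmin cytokine of keratinocytes, was at 18.1 CPM in control and 296 in experimental cycling cells (4.03, 3.85 to 4.23). Its hashtag sets were at 8.43, 18.2 and 29.6 CPM against 121, 175 and 521. In immune barcodes Tslp was at 2.90 and 48.7 CPM. S100a8, a calcium-binding alarmin, was at 0.984 and 24.3 CPM, with 0 UMIs in immune barcodes of either library. Few cells carried it, 0.618% of control and 2.10% of experimental cycling cells, the latter with 217 UMIs in all. Its experimental hashtag sets were uneven, at 5.17, 7.16 and 71.1 CPM. Slpi, a protease inhibitor, was at 3.86 and 135 CPM, near the 131 CPM of experimental immune barcodes. Il33, another alarmin, was lower, at 107 and 69.0 CPM (-0.63, -0.77 to -0.50).

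Growth factor genes were mostly higher, and stress genes leaned higher by less than 2-fold except for Fos. Of 14 EGF receptor and growth factor genes, 11 were higher and 3 lower, with a median log2 ratio of 0.40. The summed CPM of the list overlapped between hashtag sets (1321 to 1866 against 1829 to 2033). At least 2-fold lower was 1 gene (Igfbp3). The 3 at least 2-fold higher were the receptor ligands Areg (44.1 and 174 CPM), Hbegf (166 and 485 CPM) and Ereg (13.1 and 44.7 CPM). Areg was at 864 and 521 CPM in immune barcodes, above the cycling cells. Igfbp3, which binds insulin-like growth factors, was at 451 and 96.4 CPM (-2.23, -2.33 to -2.12), with hashtag sets at 265, 518 and 606 against 64.1, 78.3 and 79.6. Of 16 immediate early and stress genes, 15 were higher and 1, Fos, at least 2-fold (221 and 515 CPM), also a gene that responds to tissue digestion. The median of this list was 0.39.

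The 12 genes with the highest ratio among those at 20 CPM or more were Krt8, Krt18, Cldn7, Sprr2d, Slpi, Slurp1, S100a8, Sprr2a3, Nppb, Krt6b, Tslp and Klk7. Cldn7, a claudin, was at 0.984 and 35.9 CPM with 0 UMIs in immune barcodes, and Nppb, which encodes a natriuretic peptide, at 8.92 and 173 CPM. Klk7, a protease of desquamation, was at 110 and 1259 CPM but at 339 and 2131 in immune barcodes. Sprr2d, at 1.48 and 53.1 CPM, reached 288 CPM in experimental immune barcodes, Slurp1, at 3.93 and 124 CPM, reached 120, and Krt6b, at 3.30 and 59.7 CPM, reached 67.4. The 12 lowest were Cbr2, Hpgds, Mt4, Il1r2, Igfbp3, Ltb4r1, Npl, Col7a1, Col16a1, Antxr1, Cers4 and Abcc5. The hashtag sets of Cers4 overlapped, at 4.69, 24.7 and 49.7 CPM in the control and 6.42, 7.16 and 8.79 in the experimental library. Col7a1, the anchoring fibril collagen, was at 28.2 and 7.28 CPM (-1.96, -2.36 to -1.58). Il1r2, the decoy receptor of interleukin 1, was at 50.0 and 9.40 CPM, and at 748 and 963 CPM in immune barcodes.

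**Figure D4:**
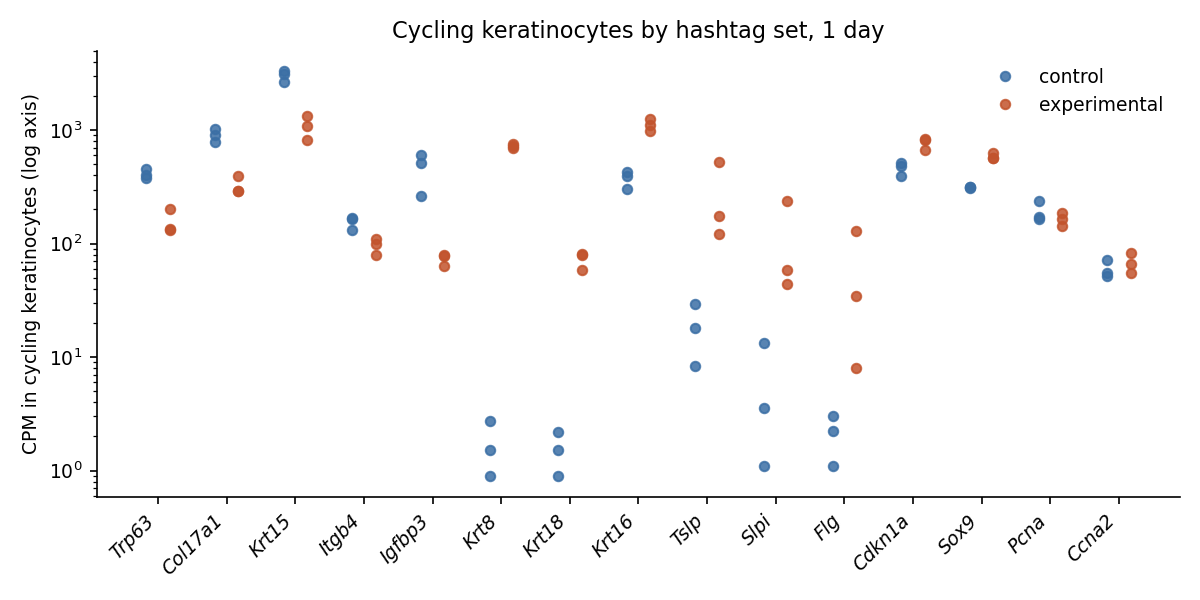
CPM in cycling keratinocytes (log axis) of 15 genes, 1 point per hashtag set and 3 sets per library, control in blue and experimental in orange. Trp63, Col17a1, Krt15, Itgb4 and Igfbp3 are lower in every experimental set, Krt8 to Sox9 are higher, and Pcna and Ccna2 overlap.

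Some genes differed between libraries by another amount in cycling than in non-cycling cells. The 10 furthest above the non-cycling ratio were Ttk, S100a8, Ch25h, Il24, Lgals9, Mgp, Tcim, Id1, Cisd3 and Clca3a2. In cycling cells the hashtag sets of Ttk, Ch25h, Lgals9, Mgp and Tcim overlapped between the libraries. Those of S100a8, Il24 and Id1 lay higher in the experimental library. Those of Cisd3 (24.3 to 28.8 against 16.1 to 22.2 CPM) and Clca3a2 (443 to 487 against 217 to 258 CPM) lay lower. A place among these genes is therefore relative to non-cycling cells and is not by itself a rise. Il24, a cytokine of the interleukin 10 family, was at 9.34 and 53.5 CPM in cycling and 5.23 and 13.8 in non-cycling cells, a difference of log2 ratios of 1.12 (0.80 to 1.44). Id1, an inhibitor of differentiation factors, was at 32.5 and 94.0 CPM in cycling and 74.9 and 109 in non-cycling cells. Ttk, the kinase of the spindle checkpoint, was at 26.1 and 13.5 CPM in cycling cells, but also at 27.4 in control non-cycling cells and 66.7 in control immune barcodes, so its control counts were no higher in cycling cells. The 10 furthest below were Elf3, Cers4, Esco2, Ly6c1, Epgn, H2-M2, Pbk, Il1r2, Iqgap3 and Elovl6. In cycling cells the sets of Ly6c1 (11.1 to 19.6 against 106 to 137 CPM) and Elf3 lay higher in the experimental library, and those of H2-M2 and Il1r2 lower. The sets of Cers4, Esco2, Epgn, Pbk, Iqgap3 and Elovl6 overlapped in cycling cells. Of these, Esco2 (16 and 29 UMIs in non-cycling cells, under the limit of 50), Pbk (37 and 70) and Iqgap3 (23 and 39) are genes of dividing cells, and since non-cycling cells were chosen to lack such transcripts, nothing is read from their place. Elf3, an epithelial transcription factor, was at 5.97 and 43.8 CPM in cycling and 3.29 and 75.0 in non-cycling cells. Epgn, an EGF receptor ligand, was at 166 and 225 CPM in cycling and 130 and 437 in non-cycling cells, but its hashtag sets in cycling cells overlapped and its log2 ratio there turned from 0.43 to -0.19 without Scrublet-marked barcodes. Sox9, a transcription factor of the hair follicle, was at 288 and 492 CPM in cycling cells (0.77, 0.71 to 0.83) and 324 and 395 in non-cycling cells. Its hashtag sets did not overlap, at 311, 313 and 314 against 566, 572 and 633.

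Experimental cycling cells were not uniform in Krt8. At 2000 UMIs per cell, 503 cells (48.0%) had no Krt8 UMI, 250 (23.9%) had 1 or 2, and 294 (28.1%) had at least 3. These are ranges of 1 count and not cell types, and cells with 1 or 2 UMIs lie near the limits. Across the ranges, from none to at least 3, Trp63 was at 169, 104 and 68.3 CPM and Col17a1 at 342, 252 and 204. Tslp ran the other way, at 144, 313 and 611 CPM. Sox9 was at 677, 415 and 171 CPM and Krt6a, the wound keratin, at 909, 738 and 360. Cdc20 was at 95.1, 110 and 187 CPM, and Itgb4 at 75.7, 89.2 and 119. Scrublet marked 28.0%, 45.2% and 23.5% of the cells in these ranges. In the control library 1292 of 1295 cycling cells had no Krt8 UMI at this depth and 3 had 1 or 2.

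**Figure D5:**
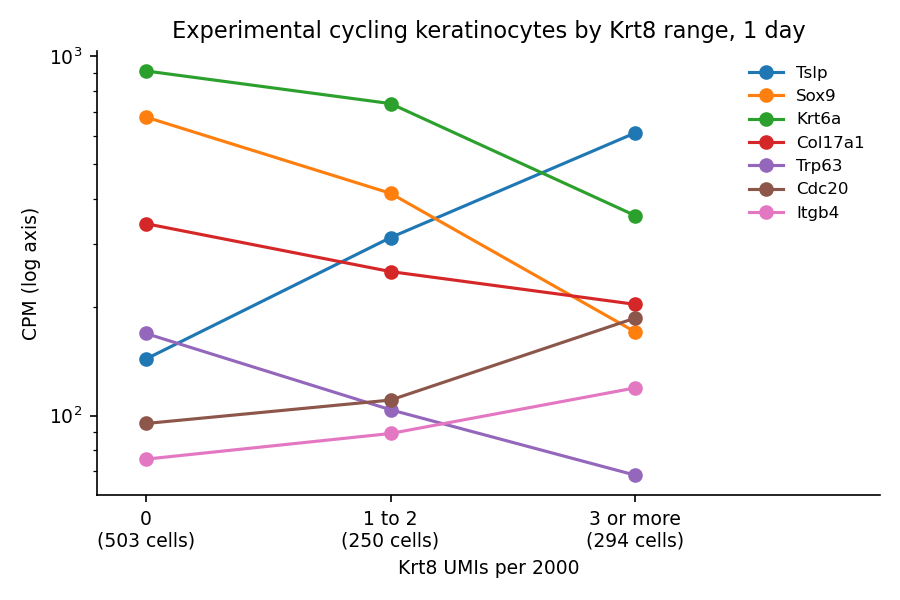
CPM (log axis) of 7 genes in experimental cycling keratinocytes grouped by Krt8 UMIs per 2000, with the number of cells under each group. Tslp runs from 144 to 611 CPM and Cdc20 from 95.1 to 187, while Sox9 runs from 677 to 171 and Trp63 from 169 to 68.3.

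Cycling keratinocytes chosen by the same rule 1 week after ablation came from separate libraries made with a 5′ kit, 379 control and 395 experimental cells, so values stand side by side and levels were not compared across kits. There, 660 of 10274 genes (6.42%) were at least 2-fold higher and 443 (4.31%) at least 2-fold lower. The log2 ratio of Trp63 was -1.67 at 1 week and -1.63 at 1 day, that of Col17a1 -1.87 and -1.63, and that of Krt8 6.23 and 9.13. The 1 week value of Krt8 rests on 1 of the 379 control cells, at 665 CPM, while the other 378 were at 0.593 CPM. The basal adhesion list had a median of -0.81 at 1 week and -0.60 at 1 day. Mitotic exit genes had a median of -0.65 at 1 week and 0.23 at 1 day.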

How the data were processed

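The authors deposited UMI counts per gene and cell barcode, made with Cell Ranger 5.0.1 on mm10, with Seurat also named, per the submitters' processing notes. The 1 day libraries used a 3′ kit and the 1 week libraries a 5′ kit, per the labels' protocols. The 1 day matrices hold 33552 control and 32212 experimental barcodes with 179736563 and 144323031 gene UMIs. Counts were summed over the cells of a class and divided by the class total (CPM). Log2 ratios of CPM have exact binomial 95% intervals and shares have Clopper-Pearson intervals, which cover counting error only; a difference of log2 ratios has a normal approximation. A gene needed 50 UMIs in the pair of sums, and 2-fold was the threshold. With 1 library per group no test between groups was run. The members and lists were chosen with earlier results of these data known. Named genes were the larger or defining members of each list, the 12 highest and 12 lowest ratios at 20 CPM or more in either library, the 10 whose ratio lay furthest above and the 10 furthest below that in non-cycling cells, and the 10 highest and 10 lowest over non-cycling cells; the last choices left out selecting, mitochondrial, ribosomal protein and predicted genes. Doublets were not removed; Scrublet (scanpy 1.11.5) marked the highest-scoring 0.8% per 1000 barcodes for an alternative. Other alternatives changed the scaling (TMM, edgeR 4.0.16), the filters, the selection limits and the hashtag sets. Positions are from GENCODE on GRCm38 and promoters from RefSeq on GRCm38.p6. Analyses used Python 3.11.15, numpy 2.4.6, scipy 1.17.1, pandas 2.3.3, matplotlib 3.10.9 and R 4.3.3.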

Additional observations from a re-analysis of the deposited data

Results flagged for a closer look

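Several values for cycling keratinocytes had opposite signs 1 day and 1 week after ablation. Each time point is 1 library per group and the kits differ, so the difference between time points was not tested. The share of cycling keratinocytes, experimental minus control, was -1.09 percentage points at 1 day and 2.91 at 1 week, but after thinning the experimental share was the higher at both, 5.04% against 4.80% at 1 day and 9.98% against 5.28% at 1 week. The median log2 ratio of mitotic exit genes was 0.23 at 1 day and -0.65 at 1 week. That of hair follicle genes was 0.25 and -0.39, and that of sebaceous markers -0.70 and 2.76. The sebaceous value at 1 day turned to 0.20 with at least 200 UMIs, 0.24 without Scrublet-marked barcodes and 0.51 over cells with a clear hashtag 2 or 3.

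The 8 selecting genes, which favour mitotic cells, turned likewise, with a median of 0.18 at 1 day and -0.47 at 1 week. Depth turned too, since the median cycling cell had 8484 control and 6968 experimental UMIs at 1 day and 11357 and 17852 at 1 week. Their part in the mitotic values was not tested. Among cell cycle genes, the log2 ratio at 1 day and 1 week was 0.54 and -0.98 for Aspm, 0.49 and -0.80 for Prc1, and 0.33 and -0.70 for Anln, which scaffolds the cleavage furrow. It was 0.54 and -0.59 for Arl6ip1, 0.21 and -0.29 for Ccnb2, and 0.26 and -0.23 for Cdc20. The 1 day value of Ccnb2 turned to -0.0422 over clear hashtags, -0.0477 over clear hashtags 2 and 3 and -0.20 over clear hashtags 1 and 3. Pttg1 lay the other way, at -0.66 and 0.25, as did Tyms at -0.21 and 0.16 and the G1 kinase Cdk4 at -0.31 and 0.45. Over clear hashtags 2 and 3 the 1 day value of Tyms turned to 0.0778. Of the p53 targets, Cdkn1a was at 0.72 and -0.48 and Gadd45a at 0.58 and -0.39. Krt1 was at -0.55 and 0.48, with a 1 day value that turned to 0.18 without Scrublet-marked barcodes, 0.33 over clear hashtags 2 and 3, and 0.00590 over clear hashtags 1 and 2. The chemokine Ccl20 was at -1.27 and 0.57.

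The antibody features of the 1 day libraries are outside the gene measurements. Hashtags 1 to 3 summed to 16384448 counts in the control and 12291636 in the experimental library, and the fourth hashtag had 2256 and 1425.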

How the results depend on the processing

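No paired analysis was possible because each group is 1 library. Each list median was counted once per alternative, against the median of its genes' lower limits and the median of their upper limits. These limits are not an interval of the list median. Within them stayed 229 values, 39 left them, and 5 more turned sign where both limits lay on 1 side of 0. For single gene ratios, counted against the gene's own counting interval, the numbers were 546, 282 and 19. The cause of these moves was not tested unless named. Values given without a hashtag are over barcodes with a clear hashtag only, so they leave out both that hashtag and every barcode with no clear one. They, and the share over barcodes with a clear hashtag, were chosen after seeing the data.

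The difference in cycling share, -1.09 percentage points, was 0.24 after thinning, 0.0719 with at least 20 UMIs of Krt5 plus Krt14, and -0.213 without the barcodes that Scrublet marked. With no filter beyond 1 UMI, which tests more genes, the counts higher and lower by 2-fold were 1005 and 425 in cycling cells, 1317 and 791 in non-cycling cells, and 1112 and 1266 in cycling cells at 1 week. With at least 200 UMIs, which tests fewer, they were 179 and 99 in cycling cells and 351 and 188 at 1 week, and 250 were lower in non-cycling cells.

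The differentiation median, 0.85, was 1.56 without Scrublet-marked barcodes, 1.26 over barcodes with a clear hashtag and 1.37 without hashtag 3. The median of simple epithelial and wound keratins, 1.27, was 1.21 with TMM, 1.22 without mitochondrial and ribosomal protein genes, 0.83 with no filter, 1.60 with at least 200 UMIs and 1.70 with 12 UMIs from 6 selecting genes. It was 1.32 with at least 20 UMIs of Krt5 plus Krt14, 1.48 without Scrublet-marked barcodes, 1.62 over clear hashtags, and 1.59, 1.91 and 1.79 without hashtags 1, 2 and 3. The ratio of Trp63, -1.63, was -1.77 as a mean over cells, -1.45 over clear hashtags, and -1.43 and -1.32 without hashtags 1 and 2.

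These values turned sign, from small ones to the sebaceous median (-0.70) and Krt1 (-0.55). The interfollicular median was 0.00744 and the sebaceous median 0.20 with at least 200 UMIs. The sebaceous median was also 0.24 without Scrublet-marked barcodes and 0.51 without hashtag 1, and the glycolysis median -0.0929 without hashtag 2. Krt10 was 0.12 as a mean over cells, 0.86 without Scrublet-marked barcodes, 0.25 over clear hashtags, and 0.25, 0.13 and 0.34 without hashtags 1, 2 and 3. Krt1 was 0.18 without Scrublet-marked barcodes and 0.33 and 0.00590 without hashtags 1 and 3. Postn was -0.00866 with 12 UMIs from 6 genes, and Epgn -0.19 without Scrublet-marked barcodes. Without hashtag 1, Ccnb2 was -0.0477, Pcna 0.0244, Tyms 0.0778 and Ccnd2 0.00823. Without hashtag 2, Ccnb2 was -0.20, Ccna2 -0.0482 and Rrm2 -0.29, and over clear hashtags Ccnb2 was -0.0422.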

Other observations

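Genes of cholesterol synthesis had a median log2 ratio of 0.33 in cycling keratinocytes, with 10 of 14 higher in the experimental library and none past 2-fold, against a median of 0.69 in non-cycling cells. The summed CPM of the list did not overlap between hashtag sets, at 798 to 1074 in the control and 1107 to 1241 in the experimental library. Control cycling cells without a clear hashtag were at 1154 CPM, above the lowest experimental set, and experimental ones at 1352. Hair follicle genes had a median of 0.25 in cycling and -0.13 in non-cycling cells, with 2 of 16 at least 2-fold higher in cycling cells. Glycolysis genes had a median of 0.18, with none of 14 past 2-fold.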
